A study of Mus musculus with 3 samples.

Results

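Mouse Siglec receptors were followed through single-cell transcriptomes of brain microglia from mice that carried a human CD33 transgene or none. The genes were chosen by name, not by their values: Cd33, Siglech, Siglece, Siglecf, Siglec1 and Cd22. All 6 were listed in each of the 3 count files, among 14667 genes for hCD33m, 14539 for hCD33M and 14240 for Control, or 15338 genes in any file. Their levels were described in microglia, macrophages and monocytes, and between the genotypes.

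Siglecs are sialic acid-binding lectins of the immunoglobulin superfamily, and most of them are carried by cells of the immune system. Sialic acids on the cell's own surface, on its neighbours or on debris are their ligands. Many members have tyrosine motifs (ITIMs) in the cytoplasmic tail that recruit the phosphatases SHP-1 and SHP-2 and dampen activation, while others pair with the activating adaptor DAP12, the product of Tyrobp. In human microglia CD33 restrains phagocytosis and its gene is linked to the risk of Alzheimer's disease. Mouse Cd33 differs from the human protein in its tail, which lacks the ITIM closest to the membrane.

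The hCD33m and hCD33M mice carried a cDNA for the short or the long isoform of human CD33 in the Rosa26 locus, behind a floxed stop and driven by the CAG promoter, and the stop was removed by Cre expressed from the Cx3cr1 locus. The short isoform, hCD33m, lacks the domain that binds sialic acid. Control mice were labelled wild type. Per the study's methods, the hCD33m line came from a single ES cell clone of C57BL/6NTac-C2 origin, and the mice were backcrossed to C57BL/6J. All mice were 8 weeks old. The hCD33m mice were labelled female, and the hCD33M and Control mice male, while the study's text describes male mice. In the microglia-like cells Xist, the RNA of the inactive X chromosome, had 2117 (hCD33m), 0.189 (hCD33M) and 0.156 (Control) CPM, and the Y-linked Ddx3y was at 0, 82.1 and 56.0 CPM, as the labels say, so that sex and hCD33m cannot be told apart. The integrated vector and the human isoform also came together in both transgenic libraries. For other experiments of the study the controls carried Cre without a transgene, and whether the mice of the Control library did is not stated. Brains were perfused with the transcription inhibitors actinomycin D and triptolide, and cells were sorted as CD11b+ CD45low Cx3cr1+. Each genotype was 1 library, so no test between genotypes was run, and all intervals below are 95% intervals that cover counting error only. The human transgenes themselves were not analysed here.

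The libraries held 5707 (hCD33m), 5100 (hCD33M) and 3482 (Control) cell barcodes with 32572995, 28387611 and 21529542 unique molecular identifiers (UMIs). After a filter on gene number and mitochondrial share, 5612, 5046 and 3412 cells remained. Pairs of libraries shared 7 to 10 barcodes, and 1 barcode occurred in all 3. Clustering left out the Siglec genes and fixed lists of sex-linked and early response genes. It gave 12423 microglia-like cells, 311 cells like border-associated macrophages (BAM-like) and 69 monocyte-like cells, each named from markers of that type. The 2 clusters of low UMI count, with 889 and 378 cells, stayed unnamed. The sort was set for microglia, which bears on how few BAM-like and monocyte-like cells there were. The microglia-like cells had 27658, 25501 and 26167 CPM (counts scaled by the total UMIs of the summed cells) of 11 microglial markers in hCD33m, hCD33M and Control, including P2ry12, Tmem119 and Sall1. The class was named from these same markers.

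The genes lie on chromosomes 7 and 2. On chromosome 7 of GRCm38 (mm10), Siglecf (chr7:43351341-43359531), Cd33 (chr7:43524216-43544428) and Siglece (chr7:43651070-43660161) are neighbours, with 164684 bases between Siglecf and Cd33 and 106641 bases between Cd33 and Siglece. Siglecg, a B cell Siglec outside the chosen genes, lies between Siglecf and Cd33 (chr7:43408204-43418358). Siglech stands further along the same chromosome (chr7:55768178-55778925), and Cd22 is 18833 bases from Mag, the myelin-associated Siglec, at chr7:30865402-30880342. Siglec1 is on chromosome 2 (chr2:131069220-131086765). Cd33, Siglece, Cd22 and Siglec1 are read from the minus strand, and Siglecf and Siglech from the plus strand. Paralogs can share reads. The longest identical run between the transcripts of a pair was 55 bases for Siglecf with Siglecg and 49 bases for Cd33 with Cd22, and 27 bases or fewer for every other pair of the Siglec genes compared. How the counting treated reads inside such runs is not stated in the study's methods. Gm29439 overlaps Cd22 on the other strand.

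Promoters of 5 of the 6 genes were found in RefSeq (GRCm38.p6), each from 250 bases before to 50 bases after a start site. They are shown for Cd33 and its neighbour Siglecf because these 2 sequences share more than any other pair, and for Siglech because it is the most abundant Siglec of these cells. The RefSeq start of Cd33 lies within the longer gene span given above. In Cd33 and Siglecf, capitals mark the runs of at least 10 bases that both promoters hold. In Siglech, capitals mark the matches to GGAAGT and TGTGGT, which lie on the opposite strand there and read ACTTCC and ACCACA.
Cd33 (chr7:43533122-43533421, minus strand): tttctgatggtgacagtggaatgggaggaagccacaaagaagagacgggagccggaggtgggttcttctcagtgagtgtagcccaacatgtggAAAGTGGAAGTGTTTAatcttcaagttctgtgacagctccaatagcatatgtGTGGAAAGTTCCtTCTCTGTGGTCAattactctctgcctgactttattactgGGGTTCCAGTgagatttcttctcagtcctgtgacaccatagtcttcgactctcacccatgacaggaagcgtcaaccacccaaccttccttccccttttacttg
Siglecf (chr7:43351091-43351390, plus strand): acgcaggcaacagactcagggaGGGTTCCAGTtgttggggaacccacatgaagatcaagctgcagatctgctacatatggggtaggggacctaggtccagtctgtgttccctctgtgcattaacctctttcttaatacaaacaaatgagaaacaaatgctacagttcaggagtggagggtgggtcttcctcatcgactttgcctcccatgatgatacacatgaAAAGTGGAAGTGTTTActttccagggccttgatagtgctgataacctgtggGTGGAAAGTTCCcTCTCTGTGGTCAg
Siglech (chr7:55767934-55768233, plus strand): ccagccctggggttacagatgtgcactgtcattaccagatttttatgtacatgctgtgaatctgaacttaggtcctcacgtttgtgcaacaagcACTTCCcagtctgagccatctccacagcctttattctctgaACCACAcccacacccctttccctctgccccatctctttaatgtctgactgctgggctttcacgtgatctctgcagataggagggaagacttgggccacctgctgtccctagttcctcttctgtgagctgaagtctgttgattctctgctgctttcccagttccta
Cd33 and Siglecf shared 4 runs. The longest, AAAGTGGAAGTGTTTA, has 16 bases, starts at position 94 of the Cd33 stretch and at position 224 of the Siglecf stretch (counted from 1 at the 5′ end), and occurred in 2 of 32544 distinct promoters, these 2. The run GTGGAAAGTTCC, at positions 146 and 275, was likewise held by no other promoter. TCTCTGTGGTCA followed it in both, at positions 159 and 288, and was present in 9 promoters. GGGTTCCAGT, at positions 198 and 23, was present in 27 promoters and stood in a different order relative to the other runs. Among the other pairs the longest shared run had 7 to 10 bases. On either strand, GGAAGT, the core bound by ETS factors such as PU.1, was found once in Cd33, Siglech and Siglecf and not in Siglece or Cd22, and 23.7% of all promoters of this length hold it. TGTGGT, the core bound by RUNX factors, had the same distribution among the 5 promoters, against 16.7% of all promoters. The GGAAGT of Cd33 and Siglecf falls inside the run of 16 bases, and their TGTGGT inside TCTCTGTGGTCA. A match to such short motifs describes the letters only.

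Siglech was the main Siglec transcript of microglia-like cells. It encodes a receptor without an ITIM that signals through DAP12 and is used as a marker of microglia and of plasmacytoid dendritic cells. Its level was 2116 CPM in hCD33m, 2102 CPM in hCD33M and 2083 CPM in Control. Cd33 came next, with 437, 498 and 480 CPM in hCD33m, hCD33M and Control. Siglece, an inhibitory receptor with ITIMs on neutrophils, monocytes and microglia, was at 82.0, 85.4 and 81.8 CPM. These 3 genes kept the same order in every library, with intervals far apart. Since each molecule was counted at its 3′ end, UMI counts of different genes were set side by side without division by transcript length.

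The other members were scarce in microglia-like cells. Siglecf, known from eosinophils and alveolar macrophages, had 18.5 CPM in hCD33m, 23.5 CPM in hCD33M and 19.4 CPM in Control. Cd22, an inhibitory receptor of B cells, had 8.81, 11.1 and 7.67 CPM. Siglec1 (sialoadhesin, CD169), a long adhesion receptor of tissue macrophages whose tail carries no ITIM, had 1.59, 1.17 and 1.10 CPM, from 47, 31 and 21 UMIs. Outside the 6 genes, Mag was at 29.9, 34.7 and 31.8 CPM and Siglecg at 10.1, 10.97 and 8.14 CPM. Siglecg and Cd22 are neighbours in the order of levels, and their intervals overlapped in all 3 libraries. Every other pair of neighbours in the order Siglech, Cd33, Siglece, Mag, Siglecf and Siglecg was apart beyond its intervals in each library. Siglec15 was not analysed here.

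Markers of the cells that these scarcer genes are known from were looked up beside them. Mbp and 3 further oligodendrocyte markers of a list of 5 summed to 31.8 (hCD33m), 34.7 (hCD33M) and 35.6 (Control) CPM in microglia-like cells, close to the level of Mag, but were at 105, 147 and 137 CPM in monocyte-like cells, in which Mag had 1, 2 and 0 UMIs. Of 5 eosinophil markers 2 were listed in any file, at a sum of 3.19, 2.49 and 2.50 CPM. Of 5 markers of plasmacytoid dendritic cells 3 were listed, at 25.9, 16.8 and 20.1 CPM. Of 6 B cell markers 2 were listed, and their sum was as high in monocyte-like cells (409, 344 and 360 CPM) as in microglia-like cells (345, 406 and 405 CPM). The part of such cells or of free RNA in the levels of Siglecf, Cd22 and Mag was not tested.

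**Figure D1:**
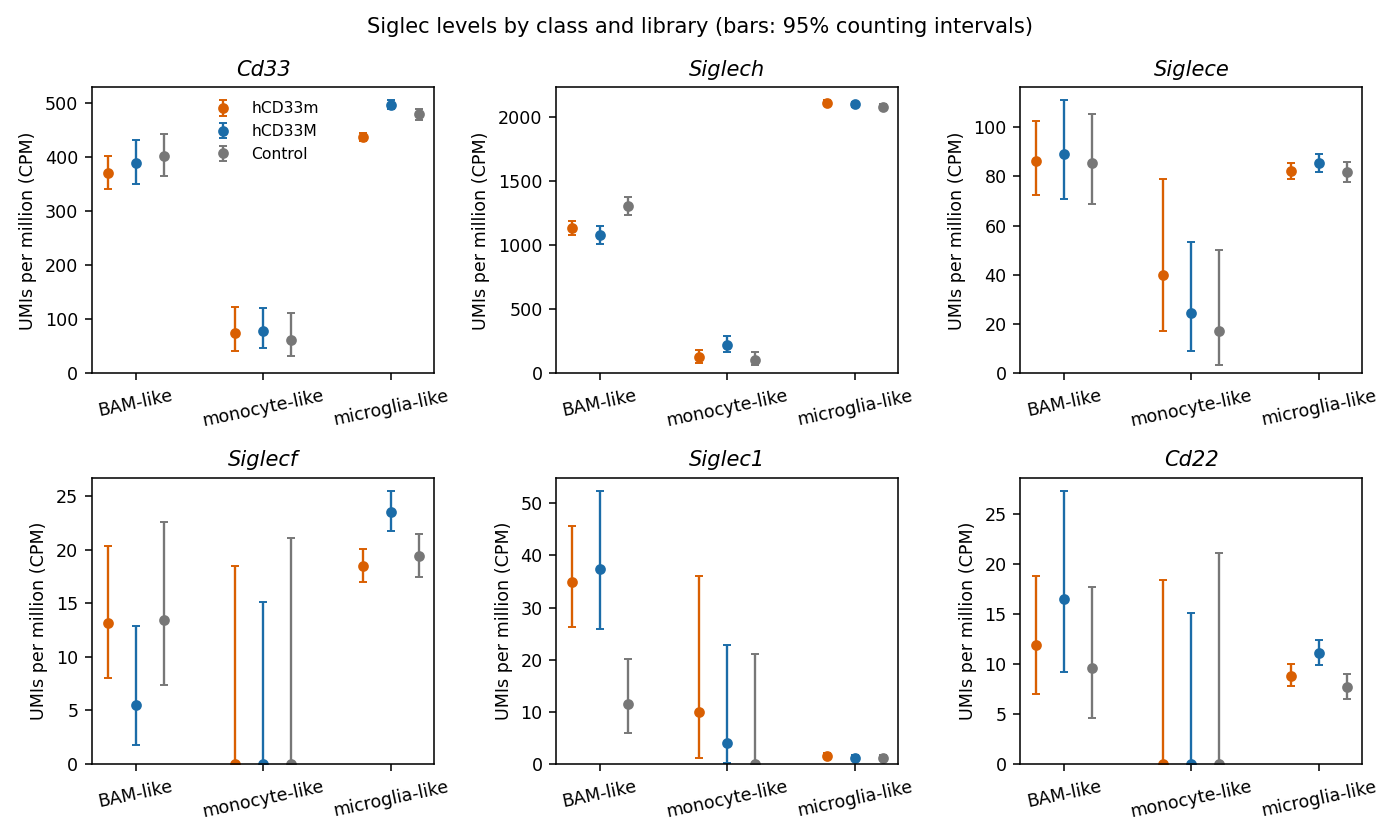
Level of each Siglec gene (y axis, CPM, linear scale from 0) in BAM-like, monocyte-like and microglia-like cells, with a point for each library (hCD33m, hCD33M, Control) and bars for the 95% counting interval. Siglech lies at 2083 to 2116 CPM in the 3 microglia-like sums and at no more than 1309 CPM in the other classes, while Siglec1 is highest in BAM-like cells.

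Depth limits what a single cell shows. With every cell thinned to 2000 UMIs, Siglech was seen in 96.9%, 97.1% and 96.8% of microglia-like cells of hCD33m, hCD33M and Control, and in 99.8%, 99.6% and 99.8% without thinning. In monocyte-like cells, which are not known to express it, 4 of 69 thinned cells (5.80%, Clopper-Pearson interval 1.60% to 14.2%) held a Siglech UMI. The microglial share of Siglech was far above this. The median depth was 5321 UMIs for microglia-like and 10003 UMIs for monocyte-like cells before thinning.

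Cd33 was seen in 55.9% of thinned hCD33m microglia-like cells (54.4% to 57.3%), 60.5% of hCD33M cells (59.1% to 62.0%) and 60.4% of Control cells (58.6% to 62.1%). Without thinning these shares were 85.2%, 88.0% and 90.0%. Siglece was seen in 14.6%, 16.0% and 13.7% of thinned cells, against 1 of 69 monocyte-like cells (1.45%, up to 7.81%). For Siglecf the shares were 3.39%, 4.48% and 3.51%, for Cd22 1.67%, 2.29% and 1.22%, and for Siglec1 0.186%, 0.178% and 0.135%. None of the 69 thinned monocyte-like cells held a UMI of these last 3 genes, which allows a share of up to 4.35% by a floor of 3 counts and of up to 5.21% by the Clopper-Pearson interval, so at this depth the cell shares of Siglecf, Cd22 and Siglec1 cannot be set apart from those of monocyte-like cells.

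Among microglia-like cells at equal depth, the counts of Cd33, Siglece, Siglecf, Siglec1 and Cd22 per cell had a variance close to their mean, as independent draws would. The variance over the mean of Cd33 was 1.12, 1.12 and 1.09 in hCD33m, hCD33M and Control, and 44.1%, 39.5% and 39.6% of cells had no Cd33 UMI, against 41.4%, 36.6% and 38.0% for a Poisson count of the same mean. Siglece, Siglecf, Siglec1 and Cd22 lay between 0.998 and 1.09. For Siglech the ratio was higher, at 1.41, 1.49 and 1.47, and 3.14%, 2.86% and 3.17% of cells had no Siglech UMI, against 1.42%, 1.43% and 1.502% for a Poisson count of the same mean. Most cells showed UMIs of 2 of the 6 genes at this depth, 52.4%, 54.3% and 53.7% of the cells, and 1.16%, 1.11% and 0.945% showed none.

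The classes were then set against each other. Because they were cut from the same cells, their ratios are descriptions, without a test. Siglec1 had 35.0 CPM in hCD33m, 37.4 CPM in hCD33M and 11.5 CPM in Control BAM-like cells, from 53, 34 and 12 UMIs, against 1.59, 1.17 and 1.10 CPM in microglia-like cells. The ratio was 21.7 over the summed libraries (16.2 to 29.0), and 21.9, 32.0 and 10.5 within hCD33m, hCD33M and Control. Siglec1 was the only 1 of the 6 members at least 2-fold higher in BAM-like cells in every library, where 3.22% of 9746 genes were. Of these 2 classes it reached the 5 CPM asked of a measured gene only in BAM-like cells, where it is high. No member was at least 2-fold lower in every library, where 0.215% of genes were. The Siglec1 UMIs were spread over 37 of 127, 23 of 100 and 11 of 84 BAM-like cells, with at most 4, 3 and 2 UMIs in a cell. Thinned, 6.78% of 295 BAM-like cells held a Siglec1 UMI, against 0.171% of microglia-like cells.

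Siglech was lower in BAM-like cells, at 1138, 1078 and 1309 CPM in hCD33m, hCD33M and Control, a ratio to microglia-like cells of 0.538, 0.513 and 0.629. Cd33 differed less, with 371, 389 and 402 CPM in BAM-like cells and ratios of 0.848, 0.783 and 0.839. Siglece was as high in BAM-like as in microglia-like cells, with 86.4, 89.1 and 85.5 CPM and a summed ratio of 1.04 (0.927 to 1.17). Cd22 had a summed ratio of 1.33 whose interval (0.954 to 1.81) spans 1. Siglecf rested on 20, 5 and 14 UMIs in BAM-like cells, at 13.2, 5.50 and 13.4 CPM, with a summed ratio of 0.549 (0.389 to 0.754). Without hCD33m, hCD33M or Control, no member entered or left the count past 2-fold.

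Monocyte-like cells had low counts of every member. Cd33 was at 74.9, 77.8 and 62.8 CPM in hCD33m, hCD33M and Control, from 15, 19 and 11 UMIs, and its ratio to microglia-like cells was 0.171, 0.156 and 0.131. Siglech was at 125, 225 and 108 CPM with ratios of 0.0590, 0.107 and 0.0521. Siglece was at 39.9, 24.6 and 17.1 CPM, from 8, 6 and 3 UMIs, with ratios of 0.487, 0.288 and 0.209. These 3 of the 6 members were at least 2-fold lower in every library, where 10.2% of 9766 genes were lower and 7.71% higher. No UMI of Siglecf or Cd22 was found in any monocyte-like cell. With 3 counts over the summed libraries as the floor, Siglecf was 4.23-fold lower in monocyte-like than in microglia-like cells, and Cd22 1.93-fold. The exact intervals of the summed ratios are wider, allowing up to 0.291 for Siglecf and 0.640 for Cd22. Within hCD33m, hCD33M and Control the floor gave only 1.23-fold, 1.91-fold and 1.13-fold for Siglecf. Siglec1 had 2, 1 and 0 UMIs.

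Microglial transcripts were present in both smaller classes, and they bear on these ratios. The 11 microglial markers summed to 16324, 12227 and 16787 CPM in BAM-like cells of hCD33m, hCD33M and Control and to 3395, 2178 and 1376 CPM in monocyte-like cells, against 27658, 25501 and 26167 CPM in microglia-like cells. BAM-like cells had 6108, 6538 and 5117 CPM of 11 macrophage markers, against 315, 263 and 266 CPM in microglia-like cells, with all 11 seen in each library. Monocyte markers were at 8508, 12701 and 12670 CPM in monocyte-like cells. The cells were therefore also split by their content of 10 of these microglial markers, a split chosen after the values were seen.

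**Figure D2:**
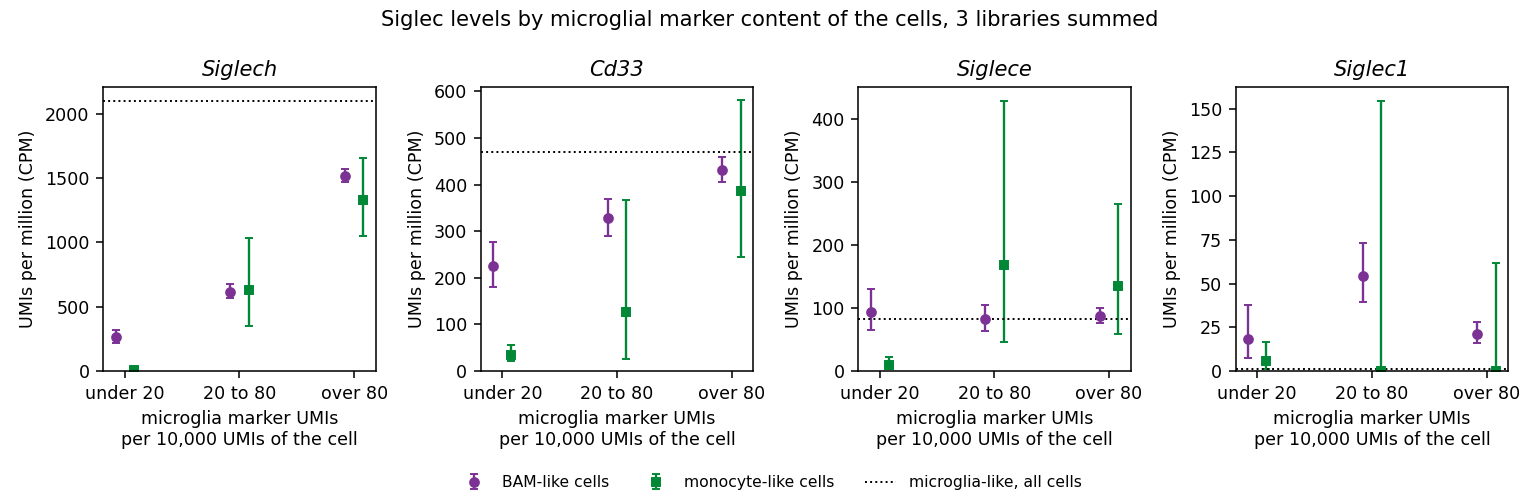
Level of Siglech, Cd33, Siglece and Siglec1 (y axis, CPM) in BAM-like and monocyte-like cells split by their microglial marker UMIs per 10000 UMIs (x axis), with the 3 libraries summed, bars for the 95% counting interval and a dotted line for all microglia-like cells. Siglech and Cd33 are higher in cells with more microglial markers, while Siglece of BAM-like cells stays near the dotted line in all 3 bins.

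In the 61 BAM-like cells with under 20 marker UMIs per 10000, Siglech was at 263 CPM. In the 117 cells with 20 to 80 it was at 619 CPM, and in the 133 cells with over 80 at 1518 CPM. Cd33 followed with 224, 328 and 432 CPM from the lowest to the highest bin. Siglece did not follow, with 93.9, 81.9 and 87.4 CPM. Siglec1 was highest in the middle bin, at 18.3, 54.2 and 21.4 CPM from 7, 43 and 49 UMIs, and the macrophage markers were highest there too, at 10825 CPM against 4534 CPM in the lowest bin and 4456 CPM in the highest. The lowest bin held the most MHC class II transcripts, 51840 CPM against 15544 and 4618 CPM in the next ones. Of 6 dendritic cell markers 5 were listed. Over all BAM-like cells they summed to 33.0 (hCD33m), 207 (hCD33M) and 146 (Control) CPM, against 3.46, 2.90 and 2.50 CPM in microglia-like cells. Whether the lowest bin includes dendritic cells was not tested. The highest bin had a median of 15465 UMIs per cell, against 5662 in the middle and 6524 in the lowest bin. Whether its cells are doublets with microglia was not tested.

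In monocyte-like cells 79 of the 99 Siglech UMIs came from 4 cells with over 80 marker UMIs per 10000, and 42 UMIs from a single hCD33M cell. The 63 monocyte-like cells with under 20 marker UMIs held 5 Siglech UMIs (9.32 CPM) and 19 Cd33 UMIs (35.4 CPM). Both values are below those of the corresponding BAM-like cells.

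A further measure, also chosen after the values were seen, divided the UMIs of each gene by the number expected if they came with the microglial markers at the ratio found in microglia-like cells of the same library. Siglech in BAM-like cells lay near 1, at 0.911 (0.869 to 0.955), 1.07 (1.004 to 1.14) and 0.980 (0.928 to 1.03) in hCD33m, hCD33M and Control. Cd33 was above it in every library, with 1.44, 1.63 and 1.31 (1.44 summed, 1.36 to 1.52). Siglece reached 1.79, 2.18 and 1.63 (1.82 summed, 1.62 to 2.04), Cd22 2.41 summed (1.74 to 3.25) and Siglec1 37.1 summed (30.2 to 45.2). Siglecf, at 0.982 (0.698 to 1.34), was near 1. In the BAM-like cells with under 20 marker UMIs per 10000, Cd33 was 4.17 times and Siglece 9.83 times the expected number, and Siglech 1.09 times (0.889 to 1.33) over the summed libraries, with 0.621 in hCD33m (0.398 to 0.924), 1.33 in hCD33M (0.982 to 1.77) and 1.62 in Control (1.08 to 2.33). These cells were selected for few UMIs of 10 of the same 11 markers, which lowers the expected numbers by construction. No conclusion is drawn from a ratio above 1 there. In monocyte-like cells Siglech was at 0.481 in hCD33m (0.311 to 0.709), 1.25 in hCD33M and 0.991 in Control, with a summed ratio of 0.860 (0.699 to 1.05). Summed likewise, Cd33 was at 1.76 (1.28 to 2.36) and Siglece at 3.74 (2.18 to 5.98). The interval of Cd33 in hCD33m (0.781 to 2.30) and that of Siglece in Control (0.821 to 11.6) span 1 in this class.

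**Figure D3:**
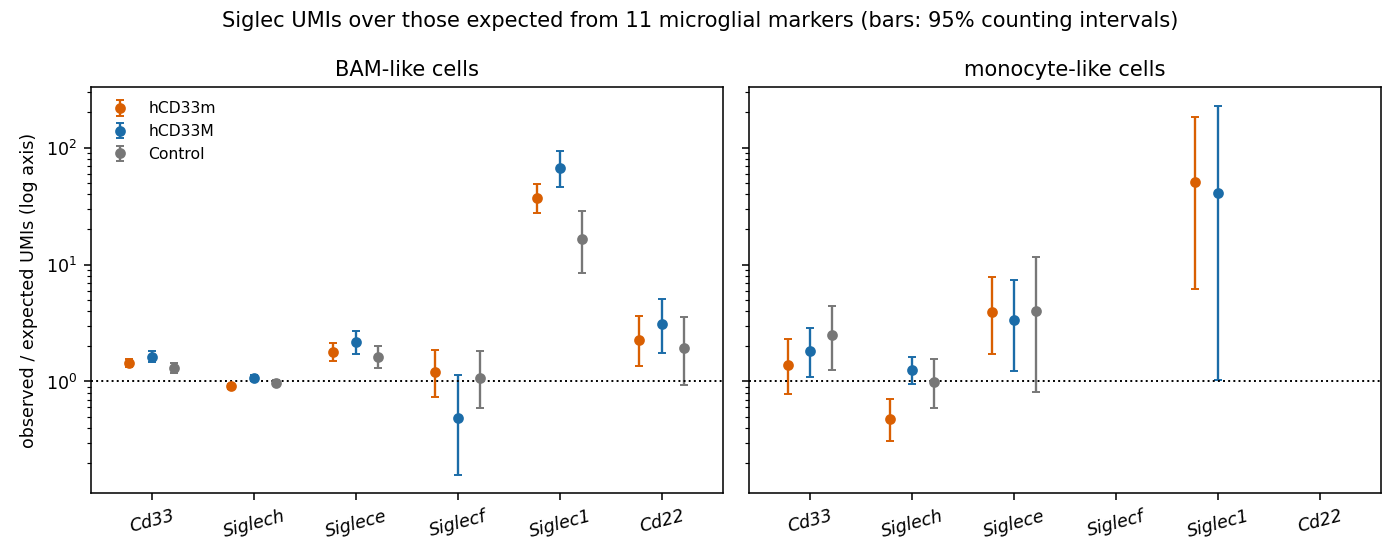
UMIs of each Siglec gene divided by the UMIs expected from 11 microglial markers (y axis, log scale) in BAM-like cells on the left and monocyte-like cells on the right, with a point for each library, bars for the 95% counting interval and a dotted line at 1. Counts of 0, among them Siglecf and Cd22 in monocyte-like cells, are not drawn on the log axis. Siglece lies above 1 in both classes, and Siglech near 1 except in monocyte-like cells of hCD33m, at 0.481.

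Microglia-like cells were not uniform. A cluster of 21 proliferating cells was too small to be described. In the other 6 microglia-like clusters, giving 18 sums over the 3 libraries, Siglech ranged between 1274 and 2278 CPM, Cd33 between 320 and 577 CPM, Siglece between 47.4 and 91.7 CPM, Siglecf between 14.7 and 40.1 CPM and Cd22 between 5.35 and 27.9 CPM. The lowest Siglech, Cd33 and Siglece values and the highest Siglecf and Cd22 values all came from the cluster led by Ccl4 and Ccl3, which encode chemokines, and by Cst7, an inhibitor of cysteine proteases found in activated microglia. This cluster held 266 hCD33m, 231 hCD33M and 72 Control cells.

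Siglech was at 1300, 1274 and 1295 CPM in the Ccl4 and Cst7 cluster of hCD33m, hCD33M and Control, against 2179, 2152 and 2106 CPM in the other microglia-like cells. The ratios, 0.597, 0.592 and 0.615, were close to each other. Siglecf was at 33.1, 36.9 and 40.1 CPM in the cluster, against 17.3, 22.7 and 18.8 CPM in the others, a ratio of 1.91, 1.62 and 2.13. So 1 of the members was at least 1.5-fold lower in every library, where 1.26% of 9580 genes were, and 1 at least 1.5-fold higher, where 2.33% were. Cd33 (0.718, 0.644 and 0.701) and Siglece (0.699, 0.662 and 0.572) were also lower in the cluster in each library but did not pass 1.5-fold in all of them.

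Cd22 differed between the libraries within this cluster. It was at 27.9 and 27.5 CPM in the hCD33m and hCD33M cells of the cluster, from 59 and 41 UMIs, and at 10.9 CPM in the Control cells, from 6 UMIs, against 7.34, 10.1 and 7.57 CPM in the other microglia-like cells. A finer clustering separated a group led by Ccl4, with 150 hCD33m, 110 hCD33M and 132 Control cells, and a group led by Cst7, with 168, 165 and 2 cells of these libraries. Cd22 was at 29.0 and 30.6 CPM in the Cst7 group of hCD33m and hCD33M, while its 2 Control cells held no Cd22 UMI. These 2 cells had 25004 UMIs together, which allows up to 148 CPM. In the Ccl4 group Cd22 was at 21.1, 23.6 and 11.3 CPM in hCD33m, hCD33M and Control. These values rest on 22, 17 and 10 UMIs, and their intervals overlap. The makeup of the cluster thus differed between the libraries along with Cd22.

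Siglec1, which interferons are known to induce, was highest among microglia-like cells in the cluster led by the interferon-induced genes Cxcl10, Ifit3 and Isg15. It was at 6.52 (hCD33m), 6.67 (hCD33M) and 20.5 (Control) CPM there, against 1.43, 0.976 and 0.641 CPM in the other microglia-like cells, a summed ratio of 8.69 (5.10 to 14.2). These levels rest on 6, 6 and 9 UMIs. Among microglia-like cells Siglec1 reached 5 CPM only in this cluster, where it is high, and so entered the measured genes through it. Siglec1 was the 1 member at least 1.5-fold higher in every library, where 1.67% of 9547 genes were, and no member was lower by that fold, where 0.44% of genes were. Siglech (0.932 summed) and Cd33 (0.899) differed little from the other cells, and Siglece was at 0.984 (0.845 to 1.14). For both clusters the Siglec genes had been kept out of the clustering, as had the sex-linked and early response genes. The remaining genes of the same cells had not.

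**Figure D4:**
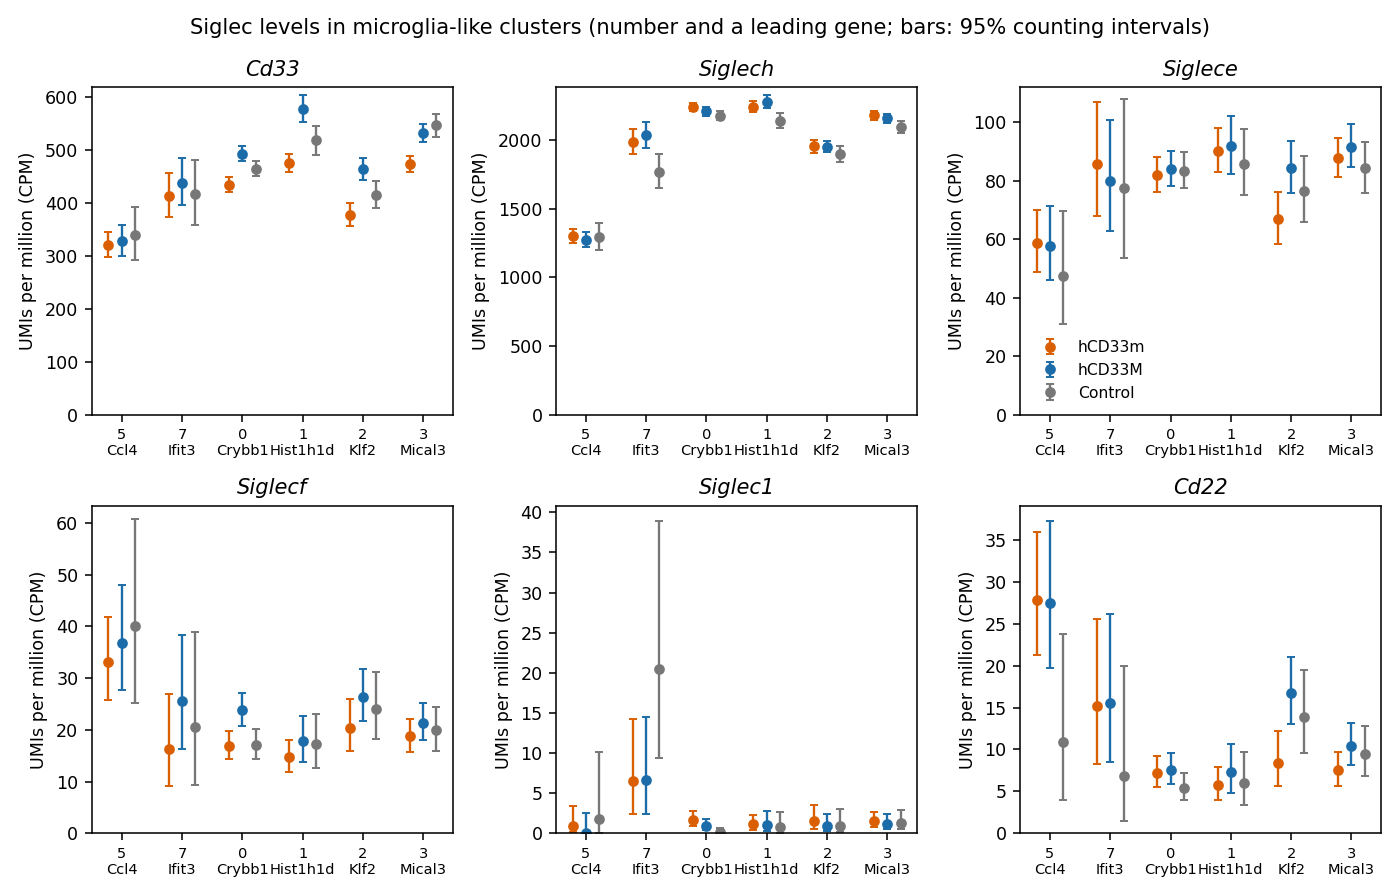
Level of each Siglec gene (y axis, CPM) in 6 microglia-like clusters (x axis, cluster number with a leading gene), with a point for each library and bars for the 95% counting interval. Cluster 5, led by Ccl4, has the lowest Siglech, at 1274 to 1300 CPM, and cluster 7, led by Ifit3, the highest Siglec1.

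The genes whose levels were most like those of each member with at least 20 CPM in any class, which leaves out Cd22, were looked up over 32 sums of a cluster in a library, from 11 clusters and among 9912 genes. Genes were compared on log2(CPM + 1), and the values describe these sums, which share libraries and the split into classes. Cd33 was most like Hpgds, a prostaglandin D synthase (Pearson r = 0.98), followed by Tanc2 and Slc16a6. Siglech was most like Scamp2 (r = 0.99), P2ry13, a purinergic receptor of microglia, and Gpr155. For Siglece the closest were Sft2d2 (r = 0.95), Abca9 and Slco2b1, and for Siglecf Gsg1 (r = 0.93), Cd14, a coreceptor for lipopolysaccharide, and Lefty1. Siglec1 was most like C4b, a complement gene (r = 0.88), then Oas2, an interferon-induced gene, and Cp. Between members, r was 0.98 for Cd33 with Siglech, 0.88 for Cd33 with Siglece and 0.74 for Cd33 with Siglecf, and for Cd33 with Siglec1 it was -0.08.

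The question of the genotypes was whether mouse Siglecs differ when a human CD33 is present. In microglia-like cells none of the 5 members with at least 5 CPM was 1.5-fold apart between any 2 libraries. Over all genes, 2.46% of 9754 were that far apart for hCD33m over Control (1.13% higher, 1.33% lower), 1.22% of 9737 for hCD33M over Control (0.76% higher, 0.462% lower) and 1.77% of 9733 for hCD33m over hCD33M (0.74% higher, 1.03% lower). The median log2 ratio of these members was 0.00, 0.06 and -0.19 in these comparisons, against -0.00, 0.01 and -0.02 over all genes. Siglec1, below 5 CPM in microglia-like cells of each library, had log2 ratios of 0.54, 0.09 and 0.45 with intervals that span 0.

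Siglech was close to level across the genotypes. Its 2116 CPM in hCD33m and 2102 CPM in hCD33M, against 2083 CPM in Control, gave log2 ratios of 0.02 and 0.01, and of 0.01 for hCD33m over hCD33M, with all 3 intervals between -0.01 and 0.04. Siglece gave 0.00 for hCD33m over Control (-0.09 to 0.10), 0.06 for hCD33M over Control (-0.03 to 0.16) and -0.06 for hCD33m over hCD33M (-0.14 to 0.03). Within the clusters, the Siglech log2 ratio of hCD33m over Control was above 0 in 6 of 6, at 0.01 to 0.17. A difference in Siglech or Siglece of 1.5-fold lies outside the counting intervals of the summed ratios, which do not include the spread between mice.

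Mouse Cd33 was lower in hCD33m than in both other libraries. Its 437 CPM in hCD33m (430 to 445), against 480 CPM in Control (470 to 490), was a log2 ratio of -0.13 (-0.17 to -0.10), and against 498 CPM in hCD33M (489 to 506) it was -0.19 (-0.22 to -0.15). For hCD33M over Control the log2 ratio was 0.05 (0.01 to 0.09). In each of the 6 clusters Cd33 was lower in hCD33m, by -0.21 to -0.01 against Control and by -0.30 to -0.03 against hCD33M. In the Ccl4 and Cst7 cluster and the cluster led by interferon-induced genes, the intervals of both ratios span 0. Genes of the lists below shifted as much for hCD33m over Control, such as Ptpn6 (-0.14, -0.20 to -0.09) and, upward, Inpp5d (0.19, 0.15 to 0.22). How many of all genes shift by this much was not counted. A finer clustering, in which the libraries were less evenly mixed, was looked at after these values were seen. Of its 11 clusters with at least 50 cells in each library, Cd33 was lower in hCD33m than in Control in 9 and than in hCD33M in 10. In the cluster with 1201 hCD33m, 120 hCD33M and 89 Control cells it was at 416, 518 and 421 CPM. The interval of each summed ratio excludes 0, but with 1 library each the spread between mice is unknown, and sex, line and isoform cannot be told apart here. The study states, from its single-cell data, that mouse Cd33 transcripts were not altered by either human isoform. Which libraries and which measure it used for this is not stated. The Cd33 ratio of hCD33m over Control was 0.911 here.

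Siglecf and Cd22 were highest in hCD33M. Siglecf, with 23.5 CPM in hCD33M cells against 19.4 CPM in Control cells, had a log2 ratio of 0.28 (0.09 to 0.47), and hCD33m over hCD33M was -0.35 (-0.52 to -0.18), below 0 in 6 of 6 clusters and in 10 of 11 of the finer ones. Within the 6 clusters, the Siglecf interval of hCD33m over hCD33M excludes 0 only in the largest one. For hCD33m over Control the Siglecf log2 ratio was -0.07 (-0.26 to 0.12). Cd22, with 11.1 CPM in hCD33M cells against 7.67 CPM in Control cells, had a log2 ratio of 0.53 (0.24 to 0.83), above 0 in 6 of 6 clusters (0.14 to 1.33) and in 9 of 11 of the finer ones. Within the 6 clusters, the Cd22 interval of hCD33M over Control excludes 0 only in the Ccl4 and Cst7 cluster. Clusters of the same libraries are not replicates. For hCD33m over Control the Cd22 log2 ratio was 0.20 (-0.10 to 0.50). Without the Ccl4 and Cst7 cluster, the Cd22 ratio was 0.42 for hCD33M over Control and -0.04 for hCD33m over Control. The Cd22 ratio of hCD33M over Control passed 1.5-fold with cells thinned to 2000 UMIs (0.93) and with the 5% of cells highest in UMIs left out (0.75). The Siglecs outside the chosen genes also stayed within 1.5-fold, with log2 ratios of 0.31 and 0.43 for Siglecg and -0.09 and 0.13 for Mag in hCD33m and hCD33M over Control.

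**Figure D5:**
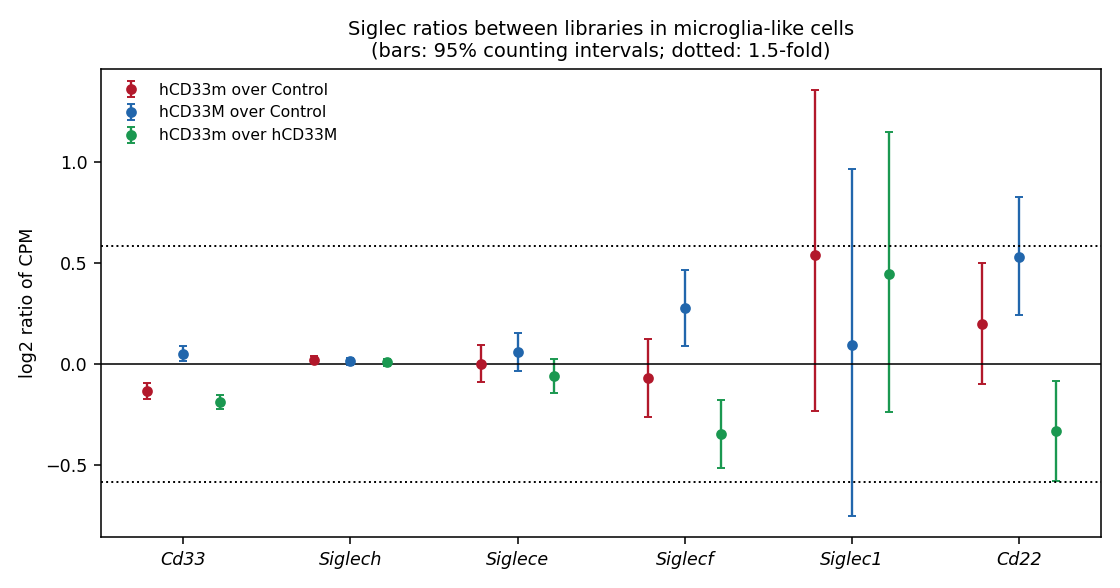
Log2 ratio of CPM between libraries in microglia-like cells (y axis) for each Siglec gene, with a point for hCD33m over Control, hCD33M over Control and hCD33m over hCD33M, bars for the 95% counting interval and dotted lines at 1.5-fold. Every point lies inside the dotted lines, and both Cd33 points that involve hCD33m lie below 0.

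In BAM-like cells Siglec1 was higher in both transgenic libraries. It had 35.0 (hCD33m) and 37.4 (hCD33M) CPM, against 11.5 CPM in Control, a log2 ratio of 1.60 (0.68 to 2.64) and 1.70 (0.71 to 2.78). Control alone was low, with 12 UMIs. In this class of few cells, 9.73% of 10081 genes were at least 1.5-fold higher in hCD33m than in Control and 10.6% of 10106 genes in hCD33M than in Control, while 8.96% were lower by that fold in hCD33m. Macrophage markers differed as well, though not all in the same direction. Lyve1, a hyaluronan receptor of perivascular and meningeal macrophages, was at 193, 149 and 58.6 CPM in hCD33m, hCD33M and Control, Cd163 at 193, 175 and 127 CPM, Mrc1 at 1286, 1566 and 1142 CPM and Pf4 at 1408, 1349 and 1239 CPM. Ccl24, of the same marker list, was highest in Control, at 73.2, 74.8 and 89.3 CPM in hCD33m, hCD33M and Control. F13a1 differed less, at 386, 367 and 338 CPM. The part of a different mix of macrophages in the Siglec1 ratio was not tested. Among the other members, Cd22 passed 1.5-fold upward and Siglecf downward (12.6% of genes) in hCD33M over Control, on 15 and 10 and on 5 and 14 UMIs, with intervals that span 0. Siglecf was also past 1.5-fold for hCD33m over hCD33M, on 20 and 5 UMIs, where 11.3% of genes were higher and 8.74% lower. Siglech was at 1138 and 1078 CPM in hCD33m and hCD33M BAM-like cells, against 1309 CPM in Control, a log2 ratio of -0.20 (-0.31 to -0.10) and -0.28 (-0.40 to -0.16). The microglial markers of these cells were at 16324, 12227 and 16787 CPM in hCD33m, hCD33M and Control, and relative to them Siglech was at 0.911, 1.07 and 0.980 of the expected number, so that hCD33M was not below Control by this measure. Of the 1725, 980 and 1363 Siglech UMIs in these libraries, the 4 cells highest in Siglech in each library held 297, 237 and 288. The intervals of the Siglech ratios do not include this spread between cells. The intervals of Cd33 and Siglece span 0 for each pair of libraries.

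The genes around Siglec signalling were followed in microglia-like cells by fixed lists. The adaptor Tyrobp was at 2841, 2812 and 2955 CPM in hCD33m, hCD33M and Control, the highest of 10 adaptor and kinase genes. Of these 10, all measured, the Src family kinase Fgr alone passed 1.5-fold, at 5.83, 5.77 and 3.44 CPM (log2 0.76 for hCD33m and 0.75 for hCD33M over Control), where 1.13% and 0.76% of all genes were higher by that fold. It reached the 5 CPM asked of a measured gene only in the 2 libraries where it is high. None of 9 measured phosphatases and suppressors passed, and Inpp5d, the lipid phosphatase SHIP1, led them with 615, 566 and 541 CPM. None of 12 measured other ITIM-bearing or inhibitory receptors passed, with Laptm5, a lysosomal membrane protein, highest at 2478, 2535 and 2402 CPM.

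The genes that make, attach or remove the ligands of Siglecs gave few such differences. None of 6 measured genes of sialic acid synthesis and breakdown passed 1.5-fold, with the sialic acid lyase Npl highest at 74.8, 66.7 and 80.2 CPM in hCD33m, hCD33M and Control, and none of 3 sialidase genes, with the protective protein Ctsa at 725, 652 and 675 CPM. Of the sialyltransferases, 10 or 11 of 20 were measured in a comparison, and St3gal6 was highest at 399, 421 and 447 CPM. St8sia6 had 15.5 CPM in hCD33M cells against 9.70 CPM in Control cells (log2 0.68), with 14.5 CPM in hCD33m. St8sia1, the GD3 ganglioside synthase, was at 3.73, 7.39 and 4.49 CPM, a log2 ratio of 0.72 for hCD33M over Control and -0.99 for hCD33m over hCD33M. St8sia1 reached 5 CPM only in hCD33M, where it is high, and so entered the measured genes through that library. With it, 2 of 11 sialyltransferases were higher for hCD33M over Control, where 0.76% of all genes were, and 1 of 11 was lower for hCD33m over hCD33M, where 1.03% were.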

How the data were processed

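Microglia of 3 genotypes were profiled on the 10x Chromium 3′ platform, with 1 library each for hCD33m, hCD33M and Control. Per the study's methods the authors aligned reads to mm10 with Cell Ranger (v3.0.0) and used Seurat, both build and tool being named in the submitters' processing notes too. The gene annotation used is not given in the sources used. The deposited values are counts, the UMIs of each gene and barcode without normalization, limited to barcodes showing over 200 genes and to genes found in 3 or more cells. The hCD33m, hCD33M and Control files held 5707, 5100 and 3482 barcodes, while the study's text gives a slightly lower number for hCD33m and lower numbers for all after its filter.

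Kept cells had more than 200 and fewer than 8000 genes, a mitochondrial share of no more than 10% and 200 UMIs or more. No doublet caller was run. Fixed lists of sex-linked and early response genes were left out of the clustering together with the Siglec genes. Cells were clustered on 2000 variable genes without Siglec genes, 15 principal components, 20 neighbours and Leiden resolution 0.5 (Python 3.11.15, scanpy 1.11.5, scikit-learn 1.9.0, leidenalg 0.10.2, igraph 0.11.9, numpy 2.4.6, pandas 2.3.3, scipy 1.17.1; plots with matplotlib 3.10.9). A cluster was named BAM-like or monocyte-like when its top 10 genes by fold included 3 or more fixed markers of the type. Low-UMI clusters with no microglial marker among their top 10 genes stayed unnamed. Other clusters were named microglia-like when most of the 11 microglial markers were at 0.5 of the average level or more.

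UMIs were summed by class and library and scaled to CPM; the microglia-like sums held 29497346, 26517827 and 19174067 UMIs in hCD33m, hCD33M and Control. Ratios carry exact intervals from the counts and shares Clopper-Pearson intervals. Only the ratio intervals were tried on simulated data. The simulated counts had no spread beyond Poisson, unlike those of Siglech. A gene counted as apart at 1.5-fold between libraries or 2-fold between classes in every library, with at least 5 CPM on the higher side and 3 counts as the floor for a count of 0. Scaling alternatives used edgeR 4.0.16 and DESeq2 1.42.0 factors (R 4.3.3). Coordinates came from GENCODE vM21 and promoters from RefSeq, both on GRCm38. Named genes were the 6 members, other Siglecs, list members past 1.5-fold or highest in CPM, and the 3 genes most like each member with at least 20 CPM. The members and gene lists were chosen with earlier results of these data known.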

Additional observations from a re-analysis of the deposited data

Results flagged for a closer look

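Siglech was also found in barcodes that enter no comparison. In the 2 unnamed clusters of low UMI count, whose median cells held 1187 and 1195.5 UMIs, it was at 2397 CPM in hCD33m, 2621 CPM in hCD33M and 2706 CPM in Control, far above the 3.21, 4.98 and 4.52 CPM that 3 counts make there. In the 95, 54 and 70 barcodes left out by the cell filter it was at 1835, 1472.5 and 1864 CPM, where 3 counts make 7.09, 26.3 and 6.32 CPM. The unnamed clusters thus held Siglech above the 2116, 2102 and 2083 CPM of microglia-like cells, and the left-out barcodes below it. What these barcodes are was not tested.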

How the results depend on the processing

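With 1 library per genotype, precision is that of counting in these libraries, and depth limits Siglec1, Cd22 and all monocyte-like values most. No ratio past its fold changed sign, apart from the ratios to expected UMIs below. Among the smaller log2 ratios, sign changed with the setting for Cd22 (-0.04 to 0.44) and Siglece (-0.02 to 0.10) for hCD33m over Control, for Siglech (-0.00 to 0.03) and Siglec1 (-0.05 to 3.04) for hCD33M over Control, for Siglech for hCD33m over hCD33M (-0.00 to 0.03), and for Cd22 in BAM-like over microglia-like cells (-0.25 to 0.52). For hCD33M over Control the count of members past 1.5-fold was 1 (Cd22) in place of 0 with cells thinned to 2000 UMIs and without the 5% of cells highest in UMIs. For BAM-like over microglia-like cells it was 2 in place of 1 with cells thinned to 2000 UMIs and at 1.5-fold, Siglech being lower besides Siglec1 higher. In BAM-like cells with under 20 microglial marker UMIs per 10000 it was 1, but this was Siglech, lower, and no longer Siglec1, which rests on 4, 3 and 0 UMIs there in hCD33m, hCD33M and Control. For monocyte-like over microglia-like cells it was 1 (Siglece, higher) in place of 3 when ratios were taken to the UMIs expected from the microglia markers or from P2ry12, Tmem119 and Sall1, which by construction take out what comes with the markers, and 2 (Cd33 and Siglech) with thinned cells and with the total taken without mitochondrial, ribosomal protein and Malat1 UMIs. Leaving out 1 library at a time gave 1 to 1 and 3 to 3 members. Cd33 stayed between -0.14 and -0.10 (log2) for hCD33m over Control and between -0.20 and -0.17 for hCD33m over hCD33M over 14 settings. Of the single values, 223 of the ratios between libraries stayed within their interval and 11 moved, as did 88 and 17 of the ratios between classes, and 4 and 50 of the shares, which follow the depth of thinning. No paired analysis was possible because each genotype is 1 library. The alternatives with marker-poor BAM-like cells, expected UMIs, the largest cluster alone or no Ccl4 and Cst7 cluster were chosen after seeing the data.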
